A study of Mus musculus with 18 samples.

Results

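Uroplakins are the membrane proteins of the urothelial plaque, and their transcripts were counted in primary murine renal proximal tubular epithelial cells (RPTEC) left with vehicle or stimulated with TWEAK, with or without an inhibitor of NF-κB inducing kinase (NIK). The members are the 5 uroplakin genes Upk1a, Upk1b, Upk2, Upk3a and Upk3b, chosen by gene symbol out of 36528 genes in the files. They had been proposed with their values over the 6 groups in view, so their levels and fold changes are given as a description, with no test. All 5 were present in the files, and 3 of them, Upk1a, Upk1b and Upk3b, passed a filter of more than 10 reads in at least 4 samples.

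Uroplakins line the luminal face of umbrella cells in the bladder, ureter and renal pelvis, where they pack into rigid plaques that keep urine from crossing the epithelium. Upk1a and Upk1b are tetraspanins, proteins that cross the membrane repeatedly, while Upk2 and the Upk3 proteins cross it with a lone segment. Upk1a pairs with Upk2, and Upk1b pairs with Upk3a or Upk3b; the pairs form in the endoplasmic reticulum and travel to the surface in fusiform vesicles. Upk3b is also known from mesothelium. TWEAK is a cytokine of the TNF family whose receptor, Fn14, activates the non-canonical NF-κB pathway through NIK.

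The cells were commercial C57BL/6 epithelial cells cultured in EpiCM-a medium. At 6 h and at 24 h there was a group with vehicle (DMSO), a group with TWEAK at 100 ng/mL, and a group with TWEAK at 100 ng/mL plus the NIK inhibitor NIK SMI1 at 3 μM, with 3 samples in each of the 6 groups and 18 samples in all. No group received NIK SMI1 alone, so the inhibitor was seen only on top of TWEAK. The labels do not say whether the samples of a group came from separate animals or cell preparations, so errors and p-values measure the spread between cultured samples. They carry no replicate numbers either, and the numbers 1 to 3 used here were given in the order of the samples and pair nothing. The TWEAK samples of a time point serve in both of its comparisons, TWEAK against vehicle and TWEAK with NIK SMI1 against TWEAK.

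Between 18040966 and 51956444 reads were counted per sample. The defining markers of proximal tubule were low, and some were absent. Of 10 listed, 4 passed the count filter, the summed level of the list lay between 9.33 and 13.3 CPM (the count scaled to the sum of all gene counts of the sample) in the 18 samples, Kap and Slc22a8 had 0 reads in every sample, and Slc34a1 had 3 reads in all. The transporter Slc5a2 reached 5.83 to 8.52 CPM, and Cubn lay at 1.93 to 4.64 CPM. Msln, a mesothelial and epithelial surface gene, lay at 1560 to 2053 CPM. The mesothelial markers Muc16 and Bnc1 lay at 7.8 to 16.2 and 8.25 to 12.5 CPM, and Wt1 had 205 reads in all. Lrrn4, Calb2 and Gpm6a had 29, 4 and 3 reads in all. Reads of the pancreatic islet genes Ins1, Ins2 and Gcg summed to 8.15 to 16.9 CPM in the 12 samples that were either at 6 h or vehicle at 24 h. They summed to 7.75, 0 and 2.56 CPM in TWEAK replicates 1 to 3 at 24 h and to 0 in the 3 samples with NIK SMI1 at 24 h. These 4 libraries without islet reads were all at 24 h with TWEAK, and the part of this pattern in the values below was not tested. Values at 24 h are therefore also given from the fit without the 2 TWEAK libraries that had islet reads, which leaves TWEAK replicate 2 as the lone TWEAK sample at 24 h. Its spread is then assumed to be that of the other groups.

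In the GRCm38 annotation, Upk1a (gene identifier 109637) lies at chr7:30603092-30612847 and Upk1b (22268) at chr16:38773184-38800328, both on the minus strand. Upk2 (22269) lies at chr9:44452715-44454976 on the minus strand. Upk3a (22270) lies at chr15:85017141-85022547 and Upk3b (100647) at chr5:136038496-136046487, both on the plus strand. Upk3bl (69665), a uroplakin 3B-like gene that is no member, lies at chr5:136054492-136064326, downstream of Upk3b on the same strand. The number of other annotated genes that overlap any of these 6 was 0. The reads had been counted on an older build, NCBI build 37, and no position was converted.

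RefSeq promoter sequences (GRCm38.p6, 250 bases before to 50 after the start) were at hand for 3 of the 5 members, Upk1a, Upk3a and Upk3b. The promoters of Upk1a and Upk3b are shown, since these 2 genes had the highest levels per length among the members and differed in opposite directions with TWEAK. They are printed in the direction of transcription, Upk1a from chr7:30612685-30612984 on the minus strand and Upk3b from chr5:136038246-136038545 on the plus strand. Capitals mark the matches to the 5 short motifs that were searched on both strands.
Upk1a: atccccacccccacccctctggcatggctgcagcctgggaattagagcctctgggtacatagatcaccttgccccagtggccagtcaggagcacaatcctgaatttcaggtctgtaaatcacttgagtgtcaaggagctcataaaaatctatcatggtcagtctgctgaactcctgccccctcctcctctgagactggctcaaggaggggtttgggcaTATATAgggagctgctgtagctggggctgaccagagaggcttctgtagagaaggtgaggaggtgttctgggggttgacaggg
Upk3b: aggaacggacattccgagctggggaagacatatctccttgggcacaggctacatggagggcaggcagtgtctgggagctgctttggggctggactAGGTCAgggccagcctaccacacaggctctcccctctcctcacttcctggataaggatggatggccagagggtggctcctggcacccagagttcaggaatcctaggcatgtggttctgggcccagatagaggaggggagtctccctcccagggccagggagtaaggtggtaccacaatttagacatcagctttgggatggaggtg

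The Upk1a promoter held a TATANA match that began 32 bases before the start, a motif found in 24.7% of all 32851 promoters of this length. The Upk3b promoter held the nuclear receptor core AGGTCA 155 bases before the start, found in 16.3% of promoters. The Upk3a promoter held the GATA factor motif AGATAA, found in 11.2%, and a TATANA match 216 bases before the start. An NF-κB type motif, GGG and TTCC separated by any 3 bases, occurred in 5.56% of promoters and the grainyhead type motif AACCNGTT in 2.09%, and neither was found in the windows of Upk1a, Upk3a and Upk3b. The matches did not overlap each other, and they are a description of these letters only.

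Levels of different genes were compared only per length, as the deposited RPKM values, which scale reads by exonic length and sample depth. Upk1a was the most abundant member, with a mean of 1.33 RPKM over the 18 samples, followed by Upk3b at 0.397 and Upk1b at 0.264 RPKM. Upk2 and Upk3a lay far below, at 0.0431 and 0.0243 RPKM. Upk1a had the highest mean in each of the 6 groups, while the order of Upk3b and Upk1b depended on the group. In vehicle at 24 h, Upk1a (1.12 ± 0.109 RPKM, SD, n = 3) lay above Upk3b (0.854 ± 0.0839), and every Upk1a sample was above every Upk3b sample. In TWEAK at 24 h the distance was widest, with Upk1a at 1.76 ± 0.0529 and Upk3b at 0.0746 ± 0.023 RPKM (SD, n = 3), and there Upk3b and Upk1b (0.147 ± 0.0796) overlapped. Keratins of simple and urothelial epithelium were far higher, with Krt18 at 2202 and Krt20 at 500 RPKM (499.6).

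**Figure D1:**
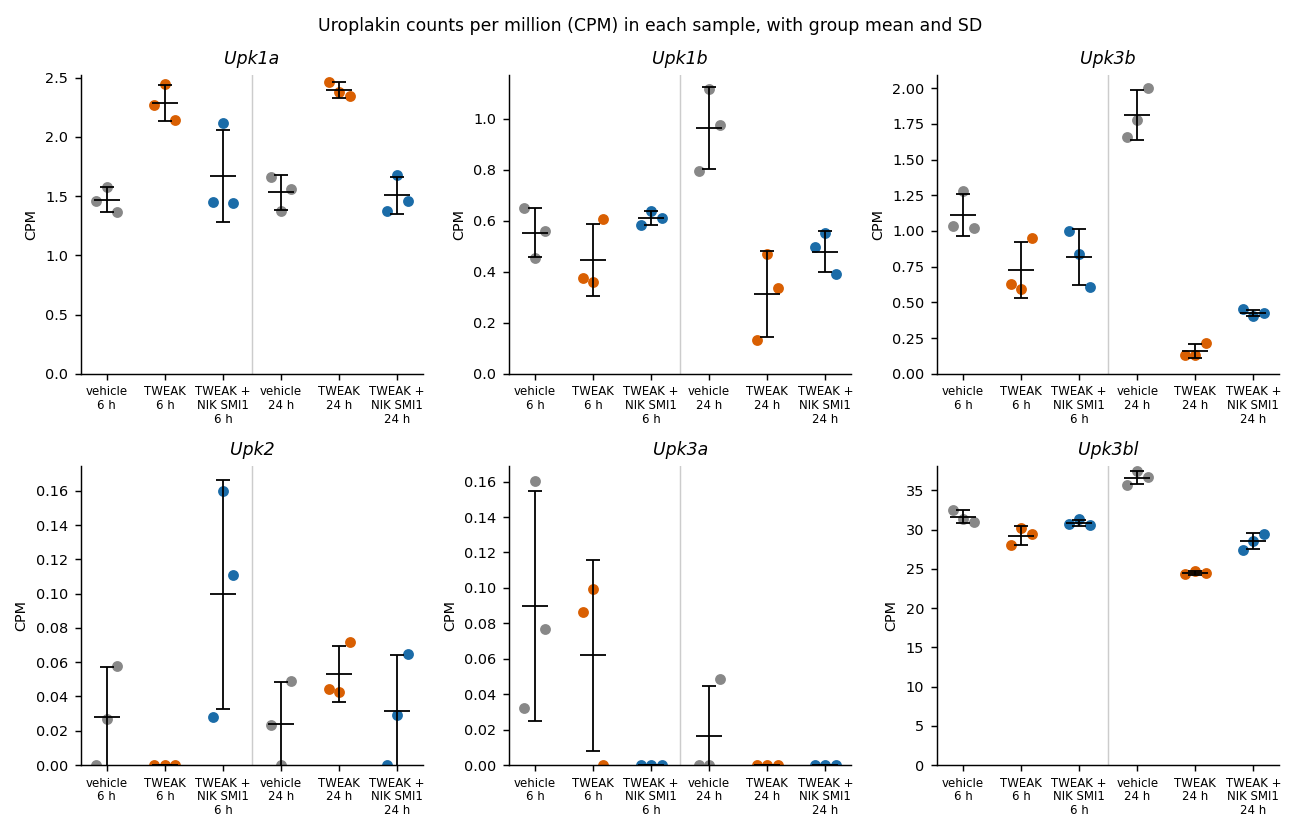
CPM (vertical axis, from 0, a scale of its own in each panel) of the 5 uroplakins and Upk3bl in the 6 groups (horizontal axis). Points are samples and bars are the mean ± SD of 3 samples. Upk1a was highest in both TWEAK groups, at 2.14 to 2.47 CPM, Upk3b was lowest in TWEAK at 24 h, at 0.128 to 0.215 CPM, and Upk2 and Upk3a rested on 0 to 6 reads per sample.

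Upk1a, the tetraspanin partner of Upk2, was higher with TWEAK at both times and near its vehicle level with NIK SMI1. At 6 h the vehicle samples had 1.46, 1.58 and 1.37 CPM, the TWEAK samples 2.27, 2.45 and 2.14 CPM, and the samples with NIK SMI1 1.45, 2.12 and 1.44 CPM. Every TWEAK sample was above every sample of the other 2 groups, and sample 2 with NIK SMI1 came close to the lowest of them. At 24 h the values were 1.66, 1.37 and 1.56 CPM with vehicle, 2.47, 2.38 and 2.34 CPM with TWEAK, and 1.38, 1.68 and 1.46 CPM with NIK SMI1. Again all TWEAK samples stood above the rest, while vehicle and NIK SMI1 overlapped. These levels came from 26 to 123 reads per sample.

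As log2 fold changes with their standard errors (SE), TWEAK against vehicle was 0.66 (SE 0.16) at 6 h and 0.62 (SE 0.17) at 24 h for Upk1a, that is 1.58-fold and 1.53-fold higher. The 2 times differed by -0.04 (SE 0.24), less than the error. TWEAK with NIK SMI1 against TWEAK was -0.46 (SE 0.17) at 6 h and -0.67 (SE 0.17) at 24 h. Against vehicle, the samples with NIK SMI1 differed by 0.20 (SE 0.18) at 6 h and by -0.06 (SE 0.18) at 24 h, with overlapping samples at both times. Without the 2 TWEAK libraries at 24 h that had islet reads, the values at 24 h were 0.60 for TWEAK and -0.66 for NIK SMI1, within the errors of those with them. In such bulk samples fewer cells that express a gene and less RNA per cell cannot be told apart.

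Upk1b, the tetraspanin partner of the Upk3 proteins, went the other way at 24 h. Vehicle samples had 0.795, 1.12 and 0.976 CPM, TWEAK samples 0.132, 0.471 and 0.335 CPM, and samples with NIK SMI1 0.496, 0.551 and 0.390 CPM. All samples with TWEAK, with or without the inhibitor, lay below all vehicle samples, while the groups with and without NIK SMI1 overlapped. The lowest TWEAK sample, replicate 1, rested on 3 reads, the other two on 22 and 14. At 6 h the vehicle samples had 0.648, 0.454 and 0.558 CPM, the TWEAK samples 0.373, 0.358 and 0.607 CPM, and the samples with NIK SMI1 0.584, 0.639 and 0.610 CPM. No group was clear of the others at 6 h.

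The log2 fold change of Upk1b for TWEAK against vehicle was -0.30 (SE 0.32) at 6 h and -1.44 (SE 0.33) at 24 h, a level 2.71-fold lower at the later time. TWEAK with NIK SMI1 against TWEAK was 0.45 (SE 0.34) at 6 h and 0.48 (SE 0.35) at 24 h. With NIK SMI1 the 24 h level was still -0.96 (SE 0.32) from vehicle. Without the 2 TWEAK libraries with islet reads, the 24 h values were -0.99 for TWEAK and 0.04 for NIK SMI1. That fit has a lone TWEAK sample at 24 h, and the difference between the groups with and without NIK SMI1 was not seen against it. Vehicle samples themselves were higher at 24 h than at 6 h, all 3 above all 3, by 0.70 (SE 0.31).

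Upk2, the partner of Upk1a, was at the limit of detection. It had 22 reads in all, 0 to 4 per sample, and 12 of 18 samples had a read. Vehicle samples had 0, 1 and 3 reads at 6 h and 1, 0 and 1 at 24 h. TWEAK samples had 0 reads at 6 h and 1, 2 and 3 at 24 h. Samples with NIK SMI1 had 1, 4 and 2 reads at 6 h and 0, 1 and 2 at 24 h. A count of 3 reads, the limit that a count of 0 allows, corresponded to 0.0577 to 0.166 CPM depending on depth and covers counting error only. The samples with NIK SMI1 at 6 h all had a read where the TWEAK samples at 6 h had none, but each group held 7 reads or fewer in all, and no comparison is drawn from them. Upk1a, its partner, had at least 26 reads in every sample.

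Upk3a, the partner of Upk1b in the mature plaque, had 20 reads in all in 6 of 18 samples. At 6 h there were 1, 6 and 4 reads with vehicle, 3, 5 and 0 with TWEAK, and 0 in each of the 3 samples with NIK SMI1. At 24 h there were 0, 0 and 1 reads with vehicle and 0 in all 6 samples with TWEAK, with or without NIK SMI1. The reads therefore came from vehicle and TWEAK samples, mostly at 6 h, at levels of at most 0.16 CPM. No fold change is given for Upk2 or Upk3a, since the groups lay at or near the limit.

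Upk3b, the other partner of Upk1b, showed the widest range among the members. At 24 h vehicle samples had 1.66, 1.78 and 2.00 CPM, TWEAK samples 0.132, 0.128 and 0.215 CPM, and samples with NIK SMI1 0.451, 0.406 and 0.422 CPM. The 3 groups did not overlap, with NIK SMI1 between vehicle and TWEAK and nearer to TWEAK. The TWEAK values rested on 3, 6 and 9 reads, against 35 to 71 reads per vehicle sample. At 6 h vehicle samples had 1.04, 1.28 and 1.02 CPM, TWEAK samples 0.632, 0.596 and 0.951 CPM, and samples with NIK SMI1 1.002, 0.838 and 0.610 CPM. Here TWEAK lay below vehicle in every sample, and TWEAK with and without NIK SMI1 overlapped.

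For Upk3b the log2 fold change of TWEAK against vehicle was -0.61 (SE 0.24) at 6 h and -3.44 (SE 0.31) at 24 h, or 1.52-fold and 10.9-fold lower. The later effect was more negative by -2.84 (SE 0.41). TWEAK with NIK SMI1 against TWEAK was 0.23 (SE 0.27) at 6 h and 1.38 (SE 0.38) at 24 h, 2.61-fold higher at 24 h. The samples with NIK SMI1 still differed from vehicle by -2.06 (SE 0.26) at 24 h, 4.18-fold lower. Without the TWEAK libraries with islet reads, the 24 h values were -3.77 for TWEAK and 1.71 for NIK SMI1, larger than with them. That fit has replicate 2 as its lone TWEAK sample at 24 h, with 6 Upk3b reads (0.128 CPM). Of the libraries left out, replicate 1 lay at 0.132 CPM, close to replicate 2, and replicate 3 at 0.215 CPM. Upk3b in vehicle was higher at 24 h than at 6 h by 0.63 (SE 0.22), with all samples separate.

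**Figure D2:**
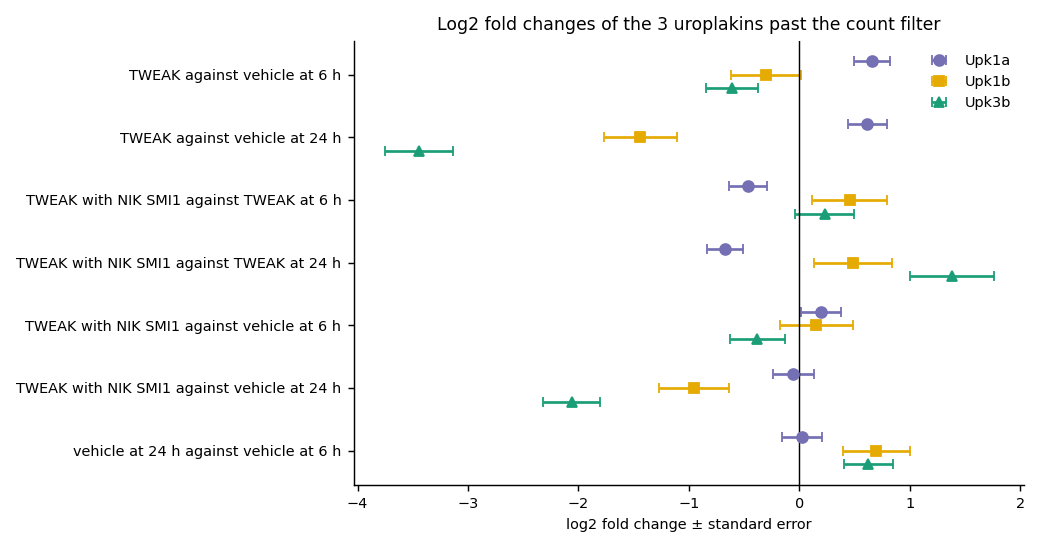
Log2 fold changes (horizontal axis, bars are standard errors) of Upk1a, Upk1b and Upk3b in 7 comparisons of groups of 3 samples (vertical axis). Upk1a lay to the right of 0 with TWEAK (0.66 and 0.62) and to the left with NIK SMI1 added, Upk3b lay farthest to the left in TWEAK at 24 h (-3.44), and Upk1b had the same signs as Upk3b in these 4 comparisons.

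Upk3bl, whose product resembles uroplakin 3B, was far more abundant than the members, at 18.7 RPKM over all samples, and as it is no member it was tested. At 24 h vehicle samples had 35.7, 37.4 and 36.7 CPM, TWEAK samples 24.3, 24.8 and 24.4 CPM, and samples with NIK SMI1 27.5, 28.6 and 29.5 CPM, with no overlap. Upk3bl fell with TWEAK at 24 h by a log2 fold change of -0.58 (SE 0.05, adjusted p = 2.5e-10, edgeR) and rose when NIK SMI1 was present, by 0.21 (SE 0.05, adjusted p = 0.00253, edgeR). The latter was no longer called without the TWEAK libraries with islet reads, at 0.20. At 6 h vehicle samples had 31.0 to 32.5 CPM, TWEAK samples 27.98 to 30.3 CPM and samples with NIK SMI1 30.5 to 31.3 CPM, and neither comparison passed the test (log2 fold changes -0.10 and 0.07, adjusted p = 0.144 and 0.425, edgeR). Its TWEAK effect was more negative at 24 h than at 6 h by -0.48 (adjusted p = 1.97e-05, edgeR). Upk3b and Upk3bl thus had the same order of groups at 24 h.

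Other genes known from urothelium came from 3 lists of 28 genes: transcription factors, keratins and surface genes, and genes of vesicle traffic to the plaque. 21 of the 28 passed the count filter. Trp63, Krt13, Krt14, Krt15, Shh, Fabp4 and Snx31 did not, with 1 (Trp63) to 115 (Krt14) reads in all. Whether these cells had a urothelial program was not tested. With TWEAK at 24 h, 17 of the 21 were lowered and 2 were raised at an adjusted p-value below 0.05, against 20.7% lowered and 18.3% raised of all 15521 genes tested. Their median log2 fold change was -0.54, beside -0.01 over all genes tested. At 6 h TWEAK lowered 15 and raised 2 of the 21, against 12.0% lowered and 11.7% raised of all genes, with a median of -0.25. With NIK SMI1 against TWEAK alone, 13 were raised and 1 was lowered at 24 h, against 10.2% raised and 8.29% lowered of all genes, with a median of 0.22. At 6 h 7 were raised and 1 was lowered, against 5.34% and 5.70%. The fit without the TWEAK libraries with islet reads has a lone TWEAK sample at 24 h and called fewer genes over all. No count from it is therefore set beside these shares. These lists were chosen with earlier results known, and the counts describe them only. For the genes named next, sizes are signed log2 fold changes, and changes with NIK SMI1 are those of TWEAK with NIK SMI1 against TWEAK.

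Among the 9 transcription factors tested, Pparg, a nuclear receptor that drives urothelial differentiation, fell from 4.19 CPM in vehicle to 1.11 CPM in TWEAK at 24 h, a log2 fold change of -1.97 (SE 0.17, adjusted p = 2.9e-10, edgeR), and had already fallen at 6 h by -0.70. It rose with NIK SMI1 at 24 h by 0.56 (adjusted p = 0.0369, edgeR), although samples overlapped. The epithelial ETS factor Elf3 fell by -0.71 at 6 h and -1.29 at 24 h and rose with NIK SMI1 by 0.53 at 24 h. Grhl3, a grainyhead factor of umbrella cell differentiation, fell by -1.79 at 24 h from a low level (0.638 to 0.184 CPM). Ehf, also an ETS factor and the most abundant of the list at 33.6 RPKM, fell by -0.21 at 6 h and -0.76 at 24 h. With NIK SMI1, Ehf rose by 0.33 at 24 h. The 2 factors raised by TWEAK were Gata3, by 2.11 and 2.27 at 6 h and 24 h, and Foxa1, by 0.44 and 0.37. Gata3 rose from low vehicle means, 0.466 CPM at 6 h and 0.378 CPM at 24 h, to 1.96 and 1.91 CPM. Foxa1 fell when NIK SMI1 was present, by -0.25 and -0.30. In all, TWEAK lowered 5 of the 9 at 6 h and 6 at 24 h, against 12.0% and 20.7% of all genes. Trp63, the marker of basal cells, had 1 read in all.

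All 7 tested keratins and surface genes were lowered by TWEAK at 24 h, and 6 of them at 6 h. Of all genes, 20.7% were lowered at 24 h and 12.0% at 6 h. Psca, a GPI-anchored surface protein of bladder epithelium, fell from 15.3 to 3.59 CPM at 24 h, by -2.06 (SE 0.10, adjusted p = 6.4e-16, edgeR), and rose with NIK SMI1 by 0.91 (SE 0.10, adjusted p = 1.0e-07, edgeR). Krt19 and Krt7 fell at 24 h by -0.87 and -0.74, and Krt5, a basal cell keratin, fell by -0.95. The umbrella cell keratin Krt20 fell by -0.35 at 6 h, and at 24 h from a mean of 1028 CPM in vehicle to 709 CPM in TWEAK. With NIK SMI1, Krt7 rose by 0.33 at 6 h and 0.36 at 24 h, and Krt19 by 0.25 and 0.46. Krt18, the most abundant of the list, rose with NIK SMI1 by 0.24 at 6 h and 0.22 at 24 h. The list had 6 raised of 7 at each time with NIK SMI1, and 0 lowered. Of all genes, 5.34% were raised at 6 h and 10.2% at 24 h, and 5.70% and 8.29% were lowered.

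The traffic genes move uroplakin vesicles toward the surface, and 5 of 6 were tested. TWEAK lowered 4 of them at each time, against 12.0% of all genes at 6 h and 20.7% at 24 h. Rab27b, a small GTPase of fusiform vesicles, fell by -0.91 at 6 h and -1.37 (SE 0.08, adjusted p = 1.2e-13, edgeR) at 24 h, and rose with NIK SMI1 by 0.34 and 0.49. Mal, a raft protein that takes part in delivery of uroplakin vesicles to the surface, fell by -0.18 and -0.76 and rose with NIK SMI1 at 24 h by 0.33. Rab11a and the motor Myo5b fell with TWEAK by -0.37 and -0.21 at 24 h. Snx31, a sorting nexin that binds uroplakins, had 14 reads in all.

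**Figure D3:**
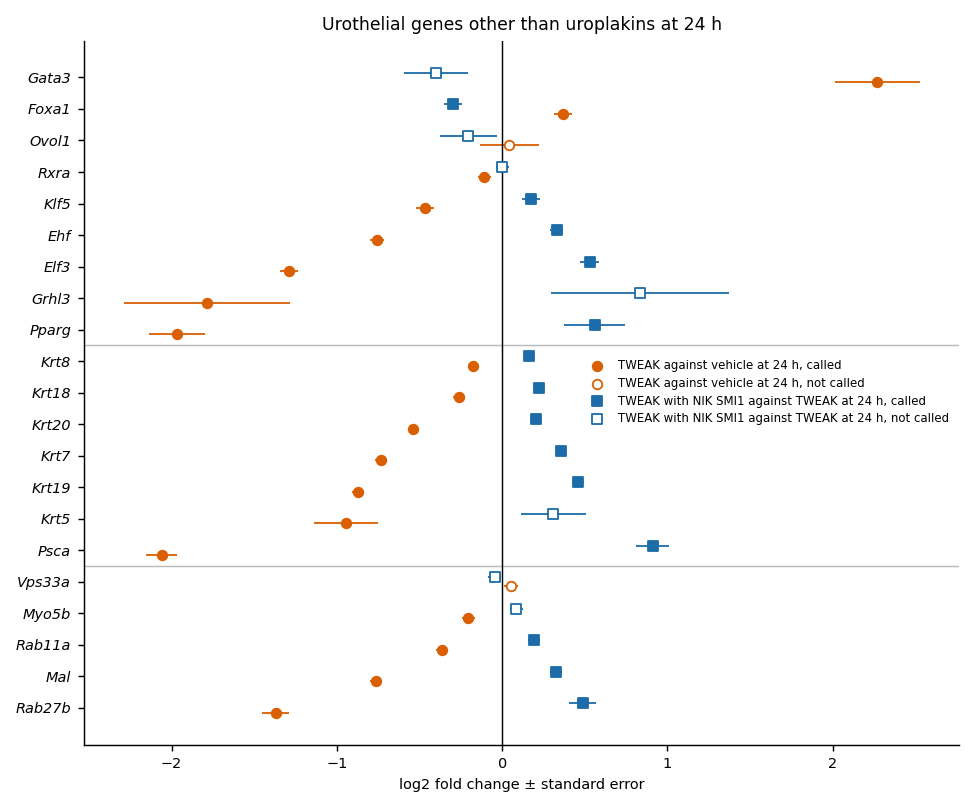
Log2 fold changes at 24 h (horizontal axis, bars are standard errors) of the 21 tested urothelial genes (vertical axis; transcription factors above, keratins and surface genes in the middle, traffic genes below) for TWEAK against vehicle (circles) and TWEAK with NIK SMI1 against TWEAK (squares). Filled symbols passed the test at an adjusted p-value below 0.05; 17 circles are filled left of 0 and 13 squares right of 0.

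The difference of an effect between 24 h and 6 h was tested in the same fit. For TWEAK, 10 of the 21 urothelial genes had a more negative effect at 24 h and 0 a more positive one, against 5.67% and 3.24% of all genes. Psca differed by -1.92 and Pparg by -1.27. For NIK SMI1, 6 of the 21 had a more positive effect at 24 h and 0 a more negative one, against 3.11% and 1.62%. Without the TWEAK libraries with islet reads these counts were 9 more negative for TWEAK and 3 more positive for NIK SMI1, in a fit where the NIK SMI1 difference called 273 genes in place of 734. It called 388 without NIK SMI1 replicate 2 at 6 h, where 5 of the 21 were more positive. Between vehicle at 24 h and at 6 h, 6 of the 21 were raised and 5 lowered, against 15.5% and 14.4%, with a median of -0.03.

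Because Upk1a and Upk1b are tetraspanins, the rest of that family was counted as well: 24 of 29 others were tested. TWEAK raised 4 and lowered 4 of them at 6 h, against 11.7% and 12.0% of all genes, and raised 2 and lowered 15 at 24 h, against 18.3% and 20.7%. NIK SMI1 raised 1 and lowered 3 at 6 h, against 5.34% and 5.70%, and raised 6 and lowered 1 at 24 h, against 10.2% and 8.29%. The lowered count at 6 h was 2 when the 6 h samples were fitted alone or without TWEAK replicate 1, and the raised count with NIK SMI1 at 24 h was 2 without TWEAK replicate 1 and 1 without both TWEAK libraries with islet reads. Cd82, a tetraspanin that restrains cell movement, was raised by TWEAK at both times, by 0.78 and 0.86 (adjusted p = 5.7e-16 and 4.3e-17, edgeR), and lowered by NIK SMI1 by -0.60 and -0.70. Tspan2 rose by 0.89 at 6 h, and Tspan18 fell by -0.74 at 6 h and -1.02 at 24 h. At 24 h TWEAK also lowered Tspan15, a partner of the protease ADAM10, by -1.67, Tspan1 by -1.31, and Cd53, a tetraspanin known from leukocytes, by -3.17 from a mean of only 0.815 CPM. Cd81 and Cd9 were the most abundant, at 329 and 267 RPKM, and fell at 24 h by -0.23 and -0.19.

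The genes most like each uroplakin were found by the root mean square (RMS) difference of log2 CPM, each gene centred on its mean over the 18 samples. The nearest to Upk1a was Cd82 (RMS 0.148), then Slc22a15 (0.163) and Ralb (0.165), where the SD of Upk1a itself over the samples was 0.327. Cd82 had 194 CPM in both vehicle groups, 330 and 353 CPM with TWEAK at 6 h and 24 h, and 219 and 217 CPM with NIK SMI1. The nearest to Upk1b were Gm20684 (0.273), Prss27 (0.286) and Tspan15 (0.309), with an SD of Upk1b of 0.587. Upk1b and these 3 genes were each lowest in TWEAK replicate 1 at 24 h, a library with islet reads and 3 Upk1b reads. Centred values there were -1.62 for Upk1b, -1.52 for Gm20684, -0.99 for Prss27 and -1.70 for Tspan15. Upk1b lay at -0.16 and -0.58 in TWEAK replicates 2 and 3 at 24 h. The part of this library in the match was not tested. The nearest to Upk3b were Psca (0.392), Atp2c2 (0.409) and Adgrl3 (0.421), with an SD of Upk3b of 1.05. Most of these neighbours changed when the 6 group means were used instead. The 3 nearest were then, in order, Nav3, Fstl1 and Cd82 for Upk1a, and Hebp1, Mgst2 and Prss27 for Upk1b. For Upk3b they were Synpr, Khdrbs2 and Gm32461, with none of Psca, Atp2c2 and Adgrl3 among them. This is a description over samples that share their treatment, with low counts for Upk1b and Upk3b.

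**Figure D4:**
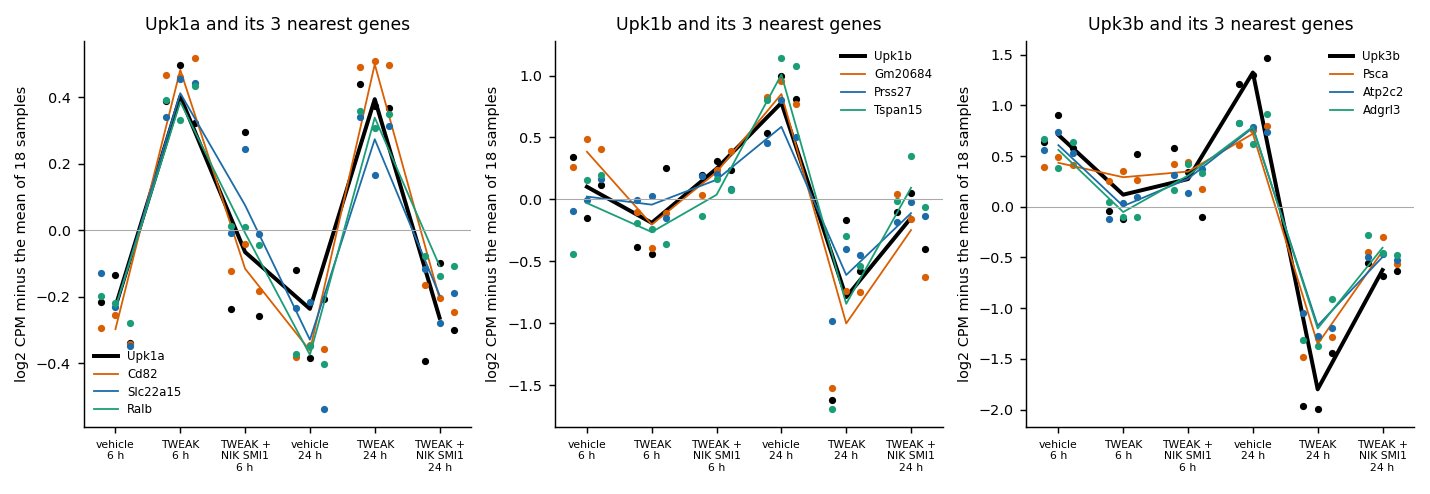
Centred log2 CPM (vertical axis) of Upk1a, Upk1b and Upk3b, each with its 3 nearest genes, in the 6 groups (horizontal axis). Points are samples and lines join group means. Upk1a and Cd82 (RMS difference 0.148) were high in both TWEAK groups, and Upk3b and Psca (0.392) were lowest in TWEAK at 24 h.

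Markers of other cell types were set beside these values. The summed level of the mesothelial list lay at 1589 to 1833 CPM in vehicle and 1795 to 1852 CPM in TWEAK at 6 h, and at 1997 to 2061 and 1987 to 2075 CPM at 24 h, and nearly all of it was Msln. TWEAK called 0 of the 4 tested genes of this list at 24 h, against 20.7% lowered and 18.3% raised of all genes. At 6 h it lowered Bnc1, a transcription factor of mesothelium and basal epithelium, by -0.40 (adjusted p = 0.000137, edgeR). With NIK SMI1 at 24 h Bnc1 was raised by 0.25 and the mucin Muc16 lowered by -0.31, although the Muc16 samples overlapped. The summed proximal tubule list lay at 12.1 to 13.3 CPM in vehicle and 10.9 to 12.5 CPM in TWEAK at 24 h. TWEAK lowered 1 of its 4 tested genes at each time, against 12.0% and 20.7% of all genes at 6 h and 24 h. This was Cubn, by -0.57 and -0.51 (adjusted p = 0.0044 and 0.00528, edgeR). The summed fibroblast list lay at 11.7 to 12.1 CPM in vehicle and 9.44 to 13.3 CPM in TWEAK at 24 h. The summed collecting duct list lay at 4.51 to 4.56 CPM in vehicle and 6.00 to 6.92 CPM in TWEAK at 24 h, almost all of it Hsd11b2, which rose by 0.56. The summed endothelial list was low but did not overlap at 24 h, at 0.195 to 0.507 CPM in vehicle and 0.573 to 0.813 CPM in TWEAK, and Cdh5, a junction protein of endothelium and its lone tested gene, was raised by 1.57 (adjusted p = 0.0307, edgeR), with overlapping samples. The summed leukocyte list lay at 0.0976 to 0.507 CPM in vehicle and 0.15 to 0.22 CPM in TWEAK at 24 h. The part of these markers in the urothelial values was not tested. The summed islet list lay at 15.3 to 20.7 CPM in vehicle, 0.77 to 14.3 CPM in TWEAK and 0.316 to 0.551 CPM with NIK SMI1 at 24 h, where Ppy was at 0. Xist and the 4 listed Y-linked genes had reads in every sample.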

How the data were processed

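RNASeq libraries of 18 murine RPTEC samples were made with an unstranded kit. The authors aligned reads with GSNAP through HTSeqGenie to NCBI build 37 and deposited raw counts, not normalized, of uniquely aligned exonic reads per gene. The authors also deposited RPKM values beside the counts, scaled by exonic length and by the reads of the sample. Labels and methods differ on sequencer and read length.

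CPM scales a count by the sum of all gene counts of its sample (18040966 to 51956444 reads). Symbols came from RefSeq, and 31050 of 36528 genes had one. Genes with more than 10 reads in at least 4 samples (15521) entered 1 edgeR 4.0.16 fit of 6 groups under R 4.3.3 (TMM, glmQLFit, glmQLFTest). Benjamini-Hochberg adjustment ran over all of them, and a call is an adjusted p below 0.05. Standard errors came from the F statistic. The scripts were tested on simulated data. Members and lists were chosen with earlier results of these data known.

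Named were the uroplakins and Upk3bl; of each list, at most 4 called genes per comparison with the largest change and the 2 most abundant by RPKM; and the 3 nearest genes of each tested uroplakin. Listed genes that failed the count filter or had few reads, such as Trp63, Snx31 and Wt1, were named after their values were seen. Motifs were chosen with the results known. Alternatives were DESeq2 1.42.0, the DESeq2 size factors in edgeR, no filter, filterByExpr, each time point alone, TMM-scaled CPM, leaving out each sample in turn, and leaving out the 24 h TWEAK libraries with islet reads. Replicate pairs of a group differed beyond sampling noise, with a chi-square per gene of 2.19 to 10.0, and each counts as 1 sample.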

Additional observations from a re-analysis of the deposited data

Results flagged for a closer look

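Effects that differed between 6 h and 24 h by the edgeR test of the difference itself were found for the following genes named above, given as the log2 effect at 24 h minus that at 6 h. For TWEAK against vehicle, the differences were -0.48 for Upk3bl, -1.27 for Pparg, -0.58 for Elf3 and -0.55 for Ehf. Among the keratins and surface genes they were -0.34 for Krt7, -0.54 for Krt19, -0.18 for Krt20 and -1.92 for Psca. Among the traffic genes they were -0.59 for Mal, -0.46 for Rab27b and -0.26 for Rab11a. Among the tetraspanins they were -1.23 for Tspan1, -1.12 for Tspan2, -1.37 for Tspan15, -0.28 for Tspan18, -0.27 for Cd9 and -2.66 for Cd53. Of the 24 tetraspanins tested, 9 had a more negative effect at 24 h and 1 a more positive one, against 5.67% and 3.24% of all genes. The latter was Cd63, not named above, at 0.19. Hsd11b2, of the collecting duct list, differed in the positive direction, by 0.49.

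For TWEAK with NIK SMI1 against TWEAK, the differences were 0.41 for Elf3, 0.44 for Ehf, 0.21 for Krt19, 0.84 for Psca, 0.30 for Mal, 0.16 for Rab11a and 0.21 for Cd9. The adjusted p-values ranged up to 0.0491 for Rab11a.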

How the results depend on the processing

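No paired analysis was possible because the labels give no replicate numbers, and those used here only name samples. Without the 24 h TWEAK libraries with islet reads, 1433 genes were called for NIK SMI1 at 24 h, 894 for the difference in TWEAK effect and 273 for the difference in NIK SMI1 effect, in place of 2866, 1383 and 734. That fit has fewer samples and a lone TWEAK sample at 24 h, assumed to vary like the other groups. There Upk3b was -3.77 for TWEAK at 24 h, 1.71 for NIK SMI1 at 24 h, -3.17 for the difference in TWEAK effect and 1.48 for that in NIK SMI1 effect, and the Upk1b difference in NIK SMI1 effect turned from 0.03 to -0.42, within its error of 0.52. Tetraspanins raised by NIK SMI1 at 24 h numbered 1, and urothelial genes with a more positive NIK SMI1 effect at 24 h, a count added after seeing the data, numbered 3. With each time point alone 2 tetraspanins were lowered by TWEAK at 6 h, and with no filter 2 urothelial genes were lowered by NIK SMI1 at 6 h, and the causes were not tested. DESeq2, its size factors and filterByExpr moved the log2 fold changes of the members by at most 0.045 and the counts of called genes by at most 1.25 times.

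With each sample left out in turn, called genes ranged from 3126 to 3386 and from 5055 to 5563 for TWEAK at 6 h and 24 h, from 1138 (without NIK SMI1 replicate 2 at 6 h) to 1825 and from 2201 to 2627 for NIK SMI1, from 1057 to 1550 and from 388 (without NIK SMI1 replicate 2 at 6 h) to 1086 for the differences in effect, and from 3858 to 4311 for vehicle over time. Upk1a ranged from 0.60 to 0.71 and 0.56 to 0.70 for TWEAK and from -0.67 to -0.34 and -0.76 to -0.60 for NIK SMI1. Upk1b ranged from -0.58 to -0.14 and -1.84 to -1.20 for TWEAK and from 0.29 to 0.73 and 0.25 to 0.88 for NIK SMI1. Upk3b ranged from -0.85 to -0.46 and -3.76 to -3.25 for TWEAK and from 0.03 to 0.47 and 1.19 to 1.69 for NIK SMI1, and its differences between times from -3.15 to -2.60 for TWEAK and from 0.91 to 1.47 for NIK SMI1. The Upk1a difference in NIK SMI1 effect ranged from -0.33 to -0.0013. Tetraspanins lowered by TWEAK at 6 h numbered 2 to 4, and those raised by NIK SMI1 at 24 h numbered 2 to 5.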
